A study of Mus musculus with 6 samples.

Results

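The *Tgfb* ligands, their receptors and the latent TGF-β binding proteins are described here as 10 genes. *Tgfb1*, *Tgfb2* and *Tgfb3* encode the ligands, *Tgfbr1*, *Tgfbr2* and *Tgfbr3* the receptors, and *Ltbp1*, *Ltbp2*, *Ltbp3* and *Ltbp4* the latent binding proteins. They were chosen by name, with earlier results of these data known, and each had 1 row among the 28262 genes of the count table. All 10 were among the 14919 genes with enough counts to be tested. The data are RNA-seq read counts of Sertoli cells, the somatic nurse cells of the seminiferous epithelium, from testes of 20-day-old C57BL/6 mice. The 3 control libraries were of genotype PA1flox/flox (*Pa1 F/F*) and the 3 knockout libraries of the genotype labelled PA1-/- (*Amh-pa1-/-*), in which the floxed gene is deleted by a Cre under the promoter of *Amh*, a gene of Sertoli cells. PA1 is a subunit of the MLL3 and MLL4 histone methyltransferase complexes. The floxed allele was common to both genotypes, and the cells of both were untreated, kept in primary culture at 34 °C and washed to remove germ cells that had not attached. The study's methods call the replicates biological, while the sources do not say whether those of a genotype came from separate mice, pools of mice or cultures, so the p-values measure only the spread between these libraries, which may in part be technical.

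The 3 TGF-β ligands are secreted as latent dimers, in which the propeptide stays wrapped around the growth factor. A latent TGF-β binding protein can be joined to the propeptide and anchors the complex to fibrillin and fibronectin in the matrix, from which integrins and proteases release the ligand. The free ligand brings together the type II receptor (*Tgfbr2*) and the type I receptor (*Tgfbr1*), which phosphorylates SMAD2 and SMAD3, while the co-receptor betaglycan (*Tgfbr3*) presents ligand, above all that of *Tgfb2*. In the testis, TGF-β ligands are known to loosen the Sertoli cell tight junctions of the blood-testis barrier.

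The 6 libraries held between 13203757 and 16231443 counts, and 3 counts, the limit that a count of 0 allows, stood for 0.185 to 0.227 CPM (counts scaled to equal library size). Reads carried no molecular identifiers, so this limit covers counting error only. Control replicates 1 and 3 resembled each other more than either resembled control replicate 2, their counts giving a chi-square of 2.36 for each degree of freedom against 20.8 and 22.5. The same held for knockout replicates 1 and 2, at 1.71 against 32.1 and 34.2 for their pairs with knockout replicate 3. Of 16 Sertoli cell markers, *Rhox5* and *Trf* had no more than 16 and 6 counts in any library, and the 14 tested included *Sox9*, at 291 to 338 CPM in control and 215 to 333 CPM in knockout libraries. The summed CPM of the Sertoli cell markers was 16829 to 17073 in control and 10094.5 to 12932 in knockout libraries, where 5 markers were lower and 2 higher at an edgeR adjusted p-value under 0.05, the rule of all marker counts here. *Clu*, at 13068 to 13177 CPM in control and 7176 to 9934 CPM in knockout libraries, carried most of this sum, and *Sox9* and *Wt1* did not pass. Besides *Clu*, the lower markers were *Sox8* (log2 fold change -1.85), *Inha* (-1.23), *Gata4* (-0.88) and *Aard* (-0.27). The 2 higher were *Dmrt1* (0.64) and *Krt18* (0.53). The other marker lists moved too. Their summed CPM went from 128–140 to 76.5–94.2 for macrophages (7 of 9 tested lower), from 836–931 to 177–332 for Leydig cells (3 of 4 lower, with *Cyp17a1* and *Insl3* at 3 counts or fewer), from 116–122 to 63.8–101 for endothelial cells (2 of 4 lower, 1 higher), from 384–520.1 to 1588–1936 for peritubular myoid cells (2 of 6 higher, *Acta2* and *Myl9*) and from 1201–1590 to 899–1631 for fibroblasts and mesothelial cells (1 of 7 lower, 3 higher). Much of the macrophage sum was *Mrc1*, which did not pass (64.2–69.4 CPM in control, 63.3–82.5 CPM in knockout libraries), while *Lyz2* went from 24.6–37.3 to 1.66–5.78 CPM. Most of the fibroblast and mesothelial sum was *Col1a1*, which did not pass. The 3 higher there were *Upk3b* (log2 fold change 4.98), *Krt19* (5.00, at 3 counts or fewer in control libraries) and *Lrrn4* (1.99), and *Pdgfra* (-1.10) was lower. Germ cell markers stayed between 1.72 and 7.07 CPM in sum, and 2 of the 11 in the table had enough counts to be tested (*Ddx4* was lower). Knockout replicate 3 stood apart from knockout replicates 1 and 2 in most lists, at a summed CPM of 12932 against 10094.5 and 10229 for Sertoli cells, 332 against 177 and 185 for Leydig cells, 1631 against 918 and 899 for fibroblasts and mesothelial cells (of which *Col1a1* 1433 against 764 and 754) and 7.07 against 1.72 and 2.60 for germ cells. Of single markers, *Amh* was at 24.8 CPM there against 2.98 and 3.29, and the smooth muscle marker *Myh11* at 109 CPM against 14.6 and 11.2 (32.7 to 44.0 in control libraries). The part of these shifts in the differences given below was not tested, and in bulk RNA fewer cells of a type and less RNA per cell cannot be told apart.

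Of the 10 genes, 6 fell and 1 rose in *Amh-pa1-/-* Sertoli cells. The 7 became 4 (*Tgfb1*, *Tgfb3*, *Tgfbr3* and *Ltbp1*) without knockout replicate 2, control replicate 1 or control replicate 3, and 2 (*Tgfb1* and *Tgfbr3*) with each pair of close replicates summed. The quasi-likelihood test of edgeR called *Tgfb3*, *Tgfbr3* and *Ltbp1* lower, which is 3 of 10, at an adjusted p-value under 0.05 and a log2 fold change of at least 1 in size. By that rule 12.0% of all tested genes were called, 6.56% of them lower and 5.44% higher. Without the fold threshold 7 of the 10 genes passed, and 35.3% of all tested genes did. In this text a gene fell or rose where its adjusted p-value was under 0.05, and was called where it also passed the fold threshold. *Tgfb1*, *Tgfb3*, *Tgfbr1*, *Tgfbr3*, *Ltbp1* and *Ltbp3* fell (17.1% of all tested genes fell), *Ltbp4* rose (18.2% rose), and *Tgfb2*, *Tgfbr2* and *Ltbp2* did not pass. The median log2 fold change of the 10 genes was -0.58, where that of all tested genes was 0.00. The knockout and control libraries did not overlap for 9 of the 10 genes, *Tgfb2* being the exception, which is the case for 52.4% of all tested genes (26.0% lower and 26.3% higher in the knockout, against 8 and 1 of the 10 genes). With 3 libraries against 3, an exact two-sided permutation test of a single gene cannot give a p below 0.1, which it gave for those 9 genes, and it gave 0.5 for *Tgfb2*.

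**Figure D1:**
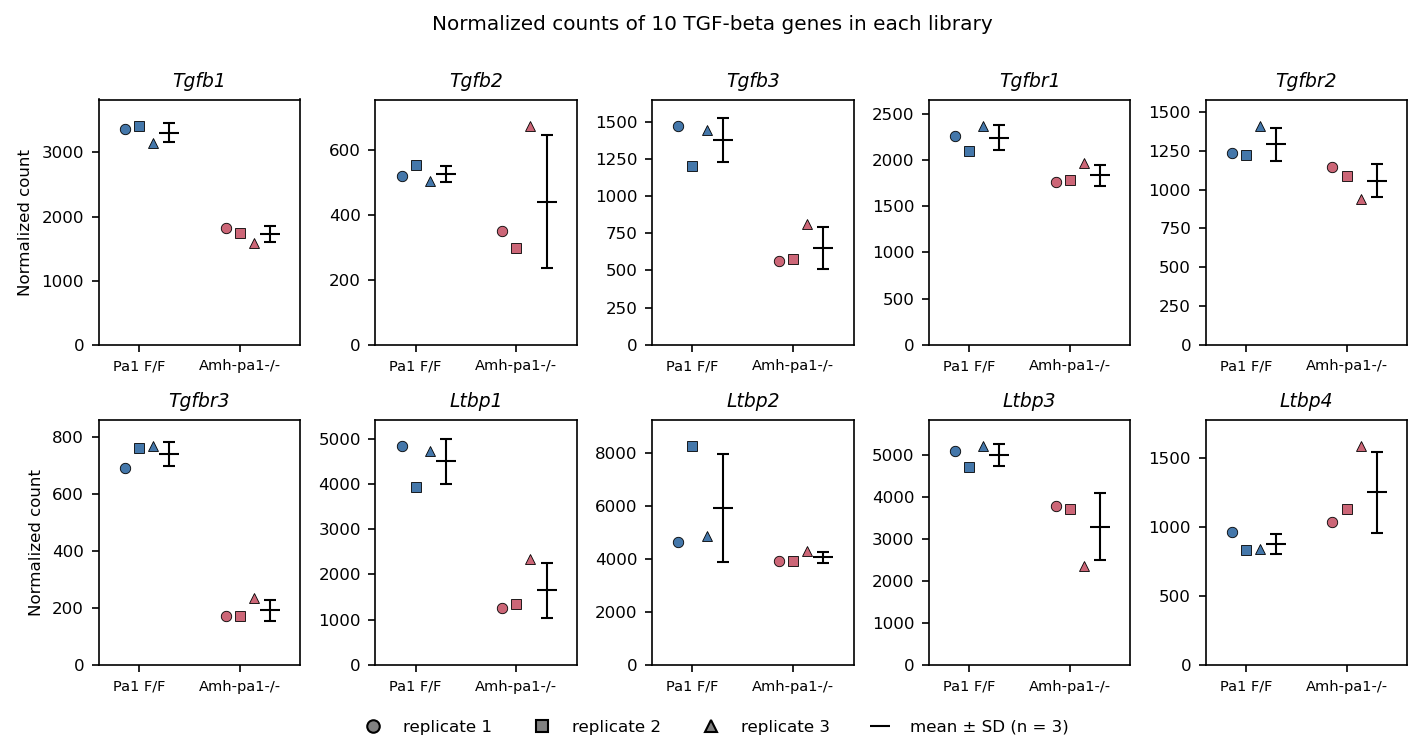
Counts normalized to library size (TMM, vertical axes from 0) of the 3 ligands, 3 receptors and 4 latent binding proteins in each library, with 1 panel per gene, a marker shape for each replicate, and bars for the mean ± SD (n = 3). The control and knockout points of *Tgfb2* overlap, those of *Tgfbr3* lie furthest apart in proportion (739.7 against 192 on average), and *Ltbp4* is the gene whose knockout points all lie above the control points.

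Sequence upstream of the transcription start, from RefSeq (GRCm38.p6), was found for 8 of the 10 genes, in 12 windows of 250 bases. *Tgfb3* and *Tgfbr3* had no entry. The windows are shown for *Ltbp1*, the called gene with an entry, for *Tgfb1*, a ligand that fell, and for the first start of *Ltbp4*, a binding protein that rose. The windows of the other *Ltbp4* starts are not shown, and they overlap each other for most of their length though each is counted. Capitals mark CAGACA or its reverse complement TGTCTG, the sequence that SMAD proteins bind, searched on both strands. *Ltbp1* has 1 start at the head of the gene and a second inside it.
Ltbp1, first start (chr17:75005279-75005528, plus strand): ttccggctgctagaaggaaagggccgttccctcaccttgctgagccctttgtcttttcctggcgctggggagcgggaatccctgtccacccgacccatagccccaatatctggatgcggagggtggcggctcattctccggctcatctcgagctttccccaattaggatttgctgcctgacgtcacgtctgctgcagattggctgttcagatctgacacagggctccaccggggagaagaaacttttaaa
Ltbp1, second start (chr17:75178531-75178780, plus strand): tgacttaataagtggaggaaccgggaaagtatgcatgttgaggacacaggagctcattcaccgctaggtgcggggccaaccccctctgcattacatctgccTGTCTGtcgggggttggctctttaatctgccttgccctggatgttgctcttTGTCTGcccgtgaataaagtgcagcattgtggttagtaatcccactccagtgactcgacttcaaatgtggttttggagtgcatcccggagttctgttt
Tgfb1 (chr7:25686752-25687001, plus strand): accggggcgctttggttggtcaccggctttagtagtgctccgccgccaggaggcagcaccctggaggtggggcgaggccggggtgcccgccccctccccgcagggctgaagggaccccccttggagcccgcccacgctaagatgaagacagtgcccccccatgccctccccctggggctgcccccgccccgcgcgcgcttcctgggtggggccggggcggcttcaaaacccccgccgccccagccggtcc
Ltbp4, first start (chr7:27337613-27337862, minus strand): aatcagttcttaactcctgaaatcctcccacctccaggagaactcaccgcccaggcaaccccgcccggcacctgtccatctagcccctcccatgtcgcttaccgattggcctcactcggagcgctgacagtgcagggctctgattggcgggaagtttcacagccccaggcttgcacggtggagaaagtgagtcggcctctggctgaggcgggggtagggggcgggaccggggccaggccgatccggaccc
The second window of *Ltbp1* held TGTCTG at 149 to 144 and at 98 to 93 bases before the start, and the other windows printed held none. One match each stood in the window of *Tgfb2* and in that of the second start of *Tgfbr1*, so 3 of the 12 windows held the SMAD sequence, where 17.1% of all 32851 mouse windows of this length did. The palindromic AP-1 sequence TGANTCA, which does not overlap the SMAD sequence, stood in none of the 12 windows and in 6.75% of all windows. These letters are a description of the windows and say nothing of binding.

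Among the ligands, *Tgfb1* and *Tgfb3* fell to about the same extent and *Tgfb2* differed between the knockout libraries. *Tgfb1* (ENSMUSG00000002603, chr7:25687002-25705077, plus strand of GRCm38), the main ligand of many tissues and of immune cells, had 3369.9, 3417 and 3145 normalized counts in control replicates 1 to 3 and 1829, 1749.8 and 1586 in knockout replicates 1 to 3. Every knockout library lay far below every control library. The mean went from 3311 ± 145 to 1722 ± 124 normalized counts (SD, n = 3), a log2 fold change of -0.94 with a standard error of 0.07 and an edgeR adjusted p-value of 0.00025, or 52.0% of the control level. Leaving out each library in turn gave -0.99 to -0.89, and *Tgfb1* passed the adjusted p-value each time, so its fall was well outside the spread between libraries while staying short of the fold threshold.

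*Tgfb3* (ENSMUSG00000021253, chr12:86056745-86079041, minus strand) encodes the ligand best known from palate closure and, in the testis, from work on Sertoli cell junctions. It had 1474, 1206 and 1447 normalized counts in control and 561, 580.3 and 811 in knockout replicates 1 to 3. The groups did not overlap, and knockout replicate 3 was the highest of its genotype. On average *Tgfb3* went from 1376 ± 148 to 651 ± 139, with a log2 fold change of -1.08 ± 0.16 (SE) and an edgeR adjusted p-value of 0.003. The log2 fold change was -1.27 without knockout replicate 3, and between -1.27 and -0.98 over the 6 fits that left out 1 library, of which those without knockout replicate 1 (-0.98) and without knockout replicate 2 (-0.99) left the gene short of the fold threshold. With the close replicates summed it was -0.94 and did not pass (edgeR adjusted p = 0.0654). *Ttll5*, a tubulin-modifying enzyme gene on the opposite strand, shares 5149 bp with *Tgfb3*, and the strand setting of the counting was not stated, so reads of the shared stretch are uncertain. *Ttll5* itself went from 533 to 634 normalized counts on average, with a log2 fold change of 0.25 ± 0.11 (SE) that did not pass (edgeR adjusted p = 0.118).

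*Tgfb2* (ENSMUSG00000039239, chr1:186622792-186705989, minus strand), the ligand that depends most on betaglycan, had 520.1, 554 and 507 normalized counts in control and 350.5, 299 and 676 in knockout replicates 1 to 3. Knockout replicates 1 and 2 were below all control libraries and knockout replicate 3 was above all of them. The mean was 527 ± 24.2 in control and 442 ± 205 in knockout libraries, and the difference did not pass (log2 fold change -0.25 ± 0.29 SE, edgeR adjusted p = 0.536). Knockout replicate 3 alone decided this, since without it the log2 fold change was -0.70 with an adjusted p-value of 0.00155.

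Of the receptors, the co-receptor *Tgfbr3* was called, *Tgfbr1* fell by less and *Tgfbr2* did not pass. *Tgfbr3* (ENSMUSG00000029287, chr5:107106570-107289629, minus strand) encodes betaglycan, which also binds inhibin, a hormone made by Sertoli cells. It had 690.5, 761 and 768 normalized counts in control and 169.9, 171 and 233 in knockout replicates 1 to 3. All knockout libraries were far below the control libraries, and the lowest raw count behind these values was 152. The mean went from 739.7 ± 42.7 to 192 ± 36.3 (25.9% of control), with a log2 fold change of -1.95 ± 0.14 (SE) and an edgeR adjusted p-value of 0.000248. *Tgfbr3* stayed called in all 6 fits that left out a library, with log2 fold changes of -2.11 to -1.86, and when each pair of close replicates was summed and counted once (-1.87, edgeR adjusted p = 0.0215).

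*Tgfbr1* (ENSMUSG00000007613, chr4:47353222-47414931, plus strand), the type I receptor kinase also named ALK5, had 2264, 2100.3 and 2374 normalized counts in control and 1762, 1781 and 1968 in knockout replicates 1 to 3. The groups lay close together without overlap. Means were 2246 ± 138 and 1837 ± 114, a small fall (log2 fold change -0.29 ± 0.07 SE, edgeR adjusted p = 0.0183). It passed without knockout replicate 3 or control replicate 2, and did not pass without any 1 of the other 4 libraries, at adjusted p-values of 0.0725 to 0.0821, nor with the close replicates summed (edgeR adjusted p = 0.227). *Tgfbr2* (ENSMUSG00000032440, chr9:116084293-116175360, minus strand), the type II receptor that binds the ligand first, had 1239, 1222 and 1412 normalized counts in control and 1147, 1086 and 939.9 in knockout replicates 1 to 3. Its means of 1291 ± 105 and 1058 ± 106 differed by nearly as much as those of *Tgfbr1* did in proportion, without passing the test (log2 fold change -0.29 ± 0.10 SE, edgeR adjusted p = 0.0551).

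The 4 latent binding proteins did not move together. *Ltbp1* (ENSMUSG00000001870, chr17:75005568-75392512, plus strand), whose product carries latent ligand into the matrix, fell the most. It had 4839, 3925 and 4728 normalized counts in control and 1249.6, 1351 and 2346 in knockout replicates 1 to 3. The groups were well apart, and knockout replicate 3 lay between the other knockout libraries and the control libraries. The mean went from 4497 ± 499 to 1649 ± 606 (36.7% of control), with a log2 fold change of -1.45 ± 0.24 (SE) and an edgeR adjusted p-value of 0.00479. The log2 fold change was -1.79 without knockout replicate 3 and -1.28 at the least, and the gene was called in all 6 such fits. With the close replicates summed, the log2 fold change was -1.24 and the call was lost (edgeR adjusted p = 0.0773).

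*Ltbp3* (ENSMUSG00000024940, chr19:5740904-5758532, plus strand), a binding protein of all 3 ligands that is known from bone and tooth growth, had 5083, 4707 and 5213 normalized counts in control and 3778, 3723 and 2367 in knockout replicates 1 to 3. Here knockout replicate 3 was the lowest library. The mean went from 5001 ± 263 to 3289 ± 799 (log2 fold change -0.60 ± 0.17 SE, edgeR adjusted p = 0.0346). The fall was -0.41 without knockout replicate 3, with an adjusted p-value of 0.000982, and *Ltbp3* did not pass without knockout replicate 2 or any 1 control library (adjusted p-values of 0.0509 to 0.102), nor with the close replicates summed (0.143).

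*Ltbp2* (ENSMUSG00000002020, chr12:84783212-84876532, minus strand), which differs from the other 3 binding proteins in that it does not bind latent TGF-β, had 4636, 8267 and 4872 normalized counts in control and 3939, 3942 and 4295 in knockout replicates 1 to 3. Control replicate 2 was 1.74 times the mean of the other control libraries. The libraries of the groups did not overlap, and the difference of the means, 5925 ± 2032 and 4059 ± 204, did not pass (log2 fold change -0.55 ± 0.22 SE, edgeR adjusted p = 0.0938), and without control replicate 2 the log2 fold change was -0.23 (adjusted p = 0.0544). *Ltbp4* (ENSMUSG00000040488, chr7:27305136-27337692, minus strand), a partner of *Tgfb1* that is also needed for elastic fibres, had 962, 834 and 844 normalized counts in control and 1042, 1131 and 1590.3 in knockout replicates 1 to 3. It was higher in every knockout library than in any control library. Its mean rose from 880.3 ± 71.2 to 1254 ± 294, a change just past the test (log2 fold change 0.51 ± 0.16 SE, edgeR adjusted p = 0.0482). It did not pass without knockout replicate 2 or any 1 control library (adjusted p-values of 0.0637 to 0.137) or with the close replicates summed (0.122), and the log2 fold change was 0.30 without knockout replicate 3 (adjusted p = 0.0235).

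**Figure D2:**
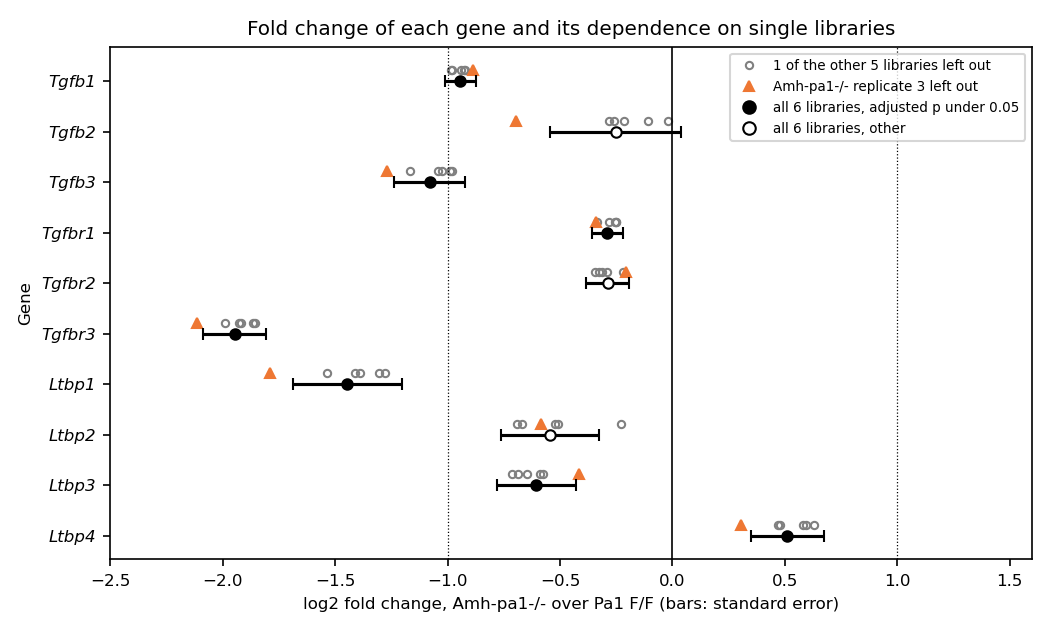
Log2 fold changes of knockout over control (horizontal axis, edgeR, bars are ± 1 SE) for the 10 genes, filled where the adjusted p-value was under 0.05. Grey circles are the fits with 1 library left out and the orange triangle the fit without knockout replicate 3. *Tgfbr3*, *Ltbp1* and *Tgfb3* lie beyond -1, *Ltbp4* lies at 0.51, and the triangle of *Tgfb2* moves from -0.25 to -0.70.

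Knockout replicate 3 was apart from knockout replicates 1 and 2 for several of the 10 genes. Its normalized count over the mean of the other knockout libraries was 2.08 for *Tgfb2*, 1.80 for *Ltbp1*, 1.46 for *Ltbp4*, 1.42 for *Tgfb3* and 1.37 for *Tgfbr3*, and 0.631 for *Ltbp3*. The remaining genes lay between 0.842 and 1.11. Over the 6419 genes whose mean was at least that of *Tgfbr3*, the 5th and 95th percentiles of this ratio were 0.674 and 1.40, and 5 of the 10 genes lay outside them. Of the 7 peritubular myoid markers, *Des*, *Actg2* and *Cnn1* were high in the same library, like *Myh11*, at 32.9, 49.6 and 28.6 CPM against no more than 4.51 CPM in the other knockout libraries. The abundant *Acta2* was at 1044 CPM against 836 and 807, *Myl9* was lowest there, at 670.1 CPM against 787 and 761, and *Tagln* was under 1 CPM in every library. Of the endothelial markers, *Kdr* was higher in knockout replicate 3, at 32.9 CPM against 5.43 and 5.05, and *Cdh5* slightly so, at 65.6 against 55.1 and 56.3, while *Pecam1* was lower, at 0.884 against 1.19 and 1.38, as were *Vwf*, at 1.16 against 1.72 and 1.22, and *Tek*, at 0.272 against 0.331 and 0.459. Their part in the values of knockout replicate 3 was not tested.

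Levels of different genes were compared as CPM per kilobase of exon, with lengths from the GENCODE vM39 annotation. In control libraries *Ltbp2*, at 49.1 ± 16.9 CPM per kb, and *Tgfb1*, at 44.2 ± 1.94, stood highest, *Ltbp2* above *Tgfb1* in control replicate 2 (68.6 against 45.6) and below it in control replicates 1 (38.5 against 45.0) and 3 (40.4 against 42.0). They were followed by *Ltbp3* at 36.2 ± 1.90, *Ltbp1* at 28.4 ± 3.15 and *Tgfbr1* at 23.0 ± 1.41. Lower levels were those of *Tgfb3* at 17.9 ± 1.92, *Tgfbr2* at 9.97 ± 0.81, *Ltbp4* at 7.93 ± 0.64, *Tgfbr3* at 7.34 ± 0.424 and *Tgfb2* at 5.71 ± 0.263 CPM per kb. Neighbours in this order did not overlap between libraries, except *Ltbp2* with *Tgfb1* and *Ltbp4* with *Tgfbr3*. In knockout libraries the order was *Ltbp2* (33.7 ± 1.70 CPM per kb), *Ltbp3* (23.8 ± 5.78), *Tgfb1* (23.0 ± 1.65), *Tgfbr1* (18.8 ± 1.17), *Ltbp4* (11.3 ± 2.65), *Ltbp1* (10.4 ± 3.83), *Tgfb3* (8.47 ± 1.81), *Tgfbr2* (8.17 ± 0.822), *Tgfb2* (4.79 ± 2.22) and *Tgfbr3* (1.90 ± 0.36). *Ltbp1* thus stood next to *Ltbp4*, and their libraries overlapped, as did those of *Ltbp3* with *Tgfb1*, *Ltbp1* with *Tgfb3*, *Tgfb3* with *Tgfbr2* and *Tgfbr2* with *Tgfb2*.

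Summed within each role, the level of the 3 ligands went from 67.8 ± 1.80 to 36.3 ± 2.54 CPM per kb, that of the 3 receptors from 40.3 ± 2.26 to 28.9 ± 0.746 and that of the 4 binding proteins from 122 ± 11.5 to 79.2 ± 2.41. In the ligand sum, *Tgfb1* held 65.2% ± 2.31 of it in control and 63.8% ± 8.29 in knockout libraries, and *Tgfb3* 26.4% ± 2.71 and 23.2% ± 3.36. *Tgfb2* held 8.43% ± 0.438 in control and 12.99% ± 5.05 in knockout libraries (10.7%, 9.48% and 18.8% in knockout replicates 1 to 3), each above the control libraries. All 3 receptors were lower in the receptor sum. In its make-up the share of *Tgfbr3* went from 18.2% ± 1.22 to 6.55% ± 1.07, while *Tgfbr1* went from 57.1% ± 1.36 to 65.1% ± 2.41 and *Tgfbr2* from 24.7% ± 0.666 to 28.3% ± 3.46. Among the binding proteins the share of *Ltbp4* went from 6.57% ± 1.001 to 14.2% ± 2.87 and that of *Ltbp1* from 23.7% ± 4.58 to 13.1% ± 4.37. *Ltbp2* held 39.8% ± 9.57 and 42.5% ± 0.905, and *Ltbp3* 30.0% ± 4.13 and 30.2% ± 8.08. Shares were not tested, and the smaller differences turned with single libraries: knockout minus control was 3.40 percentage points for *Tgfb1* without knockout replicate 3, -0.38 for *Ltbp2* without control replicate 1, and -2.35, -1.85 and -2.16 for *Ltbp3* without knockout replicate 1, knockout replicate 2 or control replicate 2. Others kept their sign and changed in size. Without knockout replicate 3 the differences were 1.66 for *Tgfb2* (4.56 with all libraries), -5.06 for *Tgfb3* (-3.17) and 5.58 for *Tgfbr2* (3.62). Without knockout replicate 1 they were 5.70, -1.84 and 2.30.

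**Figure D3:**
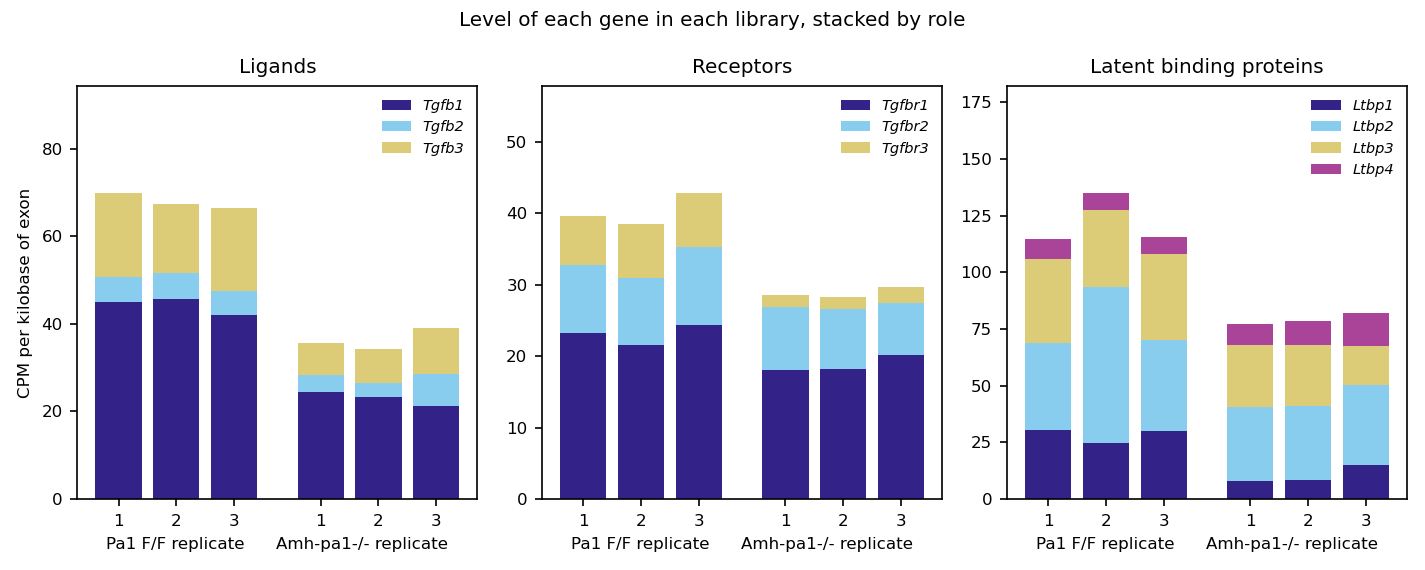
Stacked bars of CPM per kilobase of exon (vertical axis from 0) in each of the 6 libraries, in 1 panel each for the ligands, the receptors and the latent binding proteins, coloured by gene. The bars of all 3 panels are lower in the knockout libraries (ligand mean 36.3 against 67.8 CPM per kb), and the *Tgfbr3* segment narrows from 18.2% to 6.55% of the receptor bar.

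The other genes of the pathway were read from 5 lists by role, of 83 genes, of which 78 were tested. Of these, 12 were called lower and 7 higher (24.4%, against 12.0% of all tested genes), and without the fold threshold 29 fell and 13 rose (53.8%, against 35.3%), with a median log2 fold change of -0.28. Without knockout replicate 3, 16 were called lower and 4 higher, 41 fell and 17 rose, and the median was -0.39. In the fits without any 1 other library, 21 to 24 fell, 10 to 14 rose and the median was -0.30 to -0.17. Of the 10 tested genes in the list of matrix and latent complex genes, 5 fell and none rose (median -0.49). *Htra1*, a secreted protease that cleaves matrix and latent binding proteins, went from 5121 ± 783 to 1245 ± 185 normalized counts (log2 fold change -2.04 ± 0.15 SE, edgeR adjusted p = 0.000257). *Emilin1*, a matrix glycoprotein that restrains processing of the *Tgfb1* precursor, went from 1578 ± 386 to 541 ± 161 (-1.54 ± 0.25, adjusted p = 0.00402). *Tgm2*, the transglutaminase that crosslinks latent complexes to the matrix, went from 2256 ± 175 to 885 ± 57.8 (-1.35 ± 0.08, adjusted p = 0.000124). The fibrillin gene *Fbn1* and the fibronectin gene *Fn1*, whose products the latent complexes bind, did not pass, at -0.45 (adjusted p = 0.154) and -0.27 (adjusted p = 0.253), and were chosen after their values were seen. Both fell without knockout replicate 3, at -0.76 (edgeR adjusted p = 0.000335) and -0.47 (adjusted p = 0.00583), where 8 of the 10 tested genes of the list fell and its median was -0.75. *Fbn2* of the same list, also chosen after its values were seen, went the other way without passing (0.97, edgeR adjusted p = 0.143). Its log2 fold change was 0.26 without knockout replicate 3.

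Genes that activate the latent ligand moved both ways, with 6 of 14 tested falling, 4 rising and a median of -0.02. The integrin subunits *Itgb3* and *Itgb5*, partners of the αv subunit, were called lower. *Itgb3* went from 452 ± 41.6 to 221 ± 43.4 normalized counts (log2 fold change -1.03 ± 0.16 SE, edgeR adjusted p = 0.00363) and *Itgb5* from 10302 ± 334 to 5134 ± 695 (-1.005 ± 0.11, adjusted p = 0.000876). *Lrrc32*, which encodes the cell-surface carrier GARP, went from 583 ± 37.1 to 283 ± 61.5 (-1.04 ± 0.16, adjusted p = 0.00373). Of the proteases, the gelatinase gene *Mmp2* had a log2 fold change of -2.18 ± 0.23 (SE, edgeR adjusted p = 0.000845) and the urokinase gene *Plau* one of -1.14 ± 0.20 (adjusted p = 0.00587). In the other direction, *Thbs1*, whose product thrombospondin can free the ligand from its propeptide, was called higher (log2 fold change 1.07 ± 0.24 SE, edgeR adjusted p = 0.0147). Without knockout replicate 3 the log2 fold changes of *Itgb3*, *Itgb5*, *Lrrc32* and *Thbs1* were -0.88, -0.90, -0.88 and 0.83, short of the fold threshold. The calls of *Itgb3*, *Itgb5*, *Lrrc32*, *Thbs1* and *Plau* were lost in 3, 3, 2, 3 and 1 of the 6 fits with a library left out, in most of them by the fold alone. Chosen after their values were seen, the αv subunit *Itgav* rose by 0.38 (adjusted p = 0.00415) and *Itgb8*, the subunit with which it activates *Tgfb1* and *Tgfb3*, by 0.93 (adjusted p = 0.00764) on the log2 scale.

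Of 17 co-receptors, ligand traps and modulators, 4 fell and 2 rose (35.3%, the share of all tested genes, with a median of 0.03). These were 2 and 1 without knockout replicate 1, 3 and 2 without knockout replicate 2, 6 and 4 without knockout replicate 3 and 2 and 2 without control replicate 1. The proteoglycan *Bgn*, which binds TGF-β ligands in the matrix, went from 31797 to 14704 normalized counts on average (log2 fold change -1.11 ± 0.14 SE, edgeR adjusted p = 0.00178). *Nrp1*, a co-receptor shared with semaphorins, went from 784 ± 56.6 to 391 ± 142 (-1.003 ± 0.23, adjusted p = 0.0165) and was called in 2 of the 6 fits that left out a library, those without knockout replicate 3 (-1.34) and without control replicate 3. None of the 14 tested SMADs and repressors was called, while 9 fell and none rose (median -0.34). Without knockout replicate 3, *Pmepa1* (-1.09) and *Ldlrad4* (-1.08) were called lower, the second chosen after its values were seen, and *Smad2* rose (0.25, edgeR adjusted p = 0.00776). *Pmepa1*, a target of the pathway that holds SMADs back, fell the most, from 2310.2 to 1242 normalized counts (log2 fold change -0.90 ± 0.15 SE, edgeR adjusted p = 0.0044). Of the SMADs that carry the signal, chosen after their values were seen, *Smad3* fell (log2 fold change -0.54 ± 0.07 SE, adjusted p = 0.00181), and *Smad2* at 0.19 (adjusted p = 0.0665) and *Smad4* at 0.10 (adjusted p = 0.362) did not pass.

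The 23 tested transcriptional targets were split, with 5 falling and 7 rising (2 called lower and 6 higher, 34.8% against 12.0% of all tested genes). The counts moved with single libraries. The number falling was 3 without knockout replicate 1 or 2 and 2 without any 1 control library. Without knockout replicate 3, 6 targets were called lower and 3 higher, 12 fell and 7 rose, and the median log2 fold change went from -0.29 to -0.63. That median was -0.07 without knockout replicate 1 and -0.11 without knockout replicate 2. Without control replicates 1, 2 and 3 in turn, it was -0.28, -0.18 and -0.31. The targets called higher included the smooth muscle actin gene *Acta2* (log2 fold change 2.15 ± 0.14 SE, edgeR adjusted p = 0.000169), the matricellular gene *Cyr61* (1.28 ± 0.14, adjusted p = 0.000937) and the focal adhesion gene *Tgfb1i1* (1.10 ± 0.12, adjusted p = 0.0011). The AP-1 subunit gene *Junb* (1.29 ± 0.30, edgeR adjusted p = 0.0155) and the transcriptional repressor gene *Snai2* (1.22 ± 0.23, adjusted p = 0.00751) were called higher as well with all libraries. The metalloprotease inhibitor gene *Timp1* (log2 fold change -1.09 ± 0.10 SE, edgeR adjusted p = 0.000531) and the matrix gene *Tgfbi* (-1.52 ± 0.44, adjusted p = 0.0339) were called lower. *Tgfbi* was called in 1 of the 6 fits that left out a library, the one without knockout replicate 3 (-2.24). Without that library *Tgfb1i1* and *Junb* were at 0.97 and 0.88, short of the fold threshold, and *Junb* did not pass without control replicate 1 or 3 (adjusted p-values of 0.061 and 0.0626). *Acta2* is also on the peritubular myoid marker list, and it was higher without knockout replicate 3 as well (2.03). In knockout replicates 1 and 2, *Myl9* of that list was at 787 and 761 CPM against 162 to 237 in control libraries, while *Myh11*, *Des* and *Actg2* were below their control levels. Their part in the value of *Acta2* was not tested. With the close replicates summed, 9 of the 19 called pathway genes stayed called, namely *Htra1*, *Tgm2*, *Itgb3*, *Itgb5*, *Mmp2*, *Timp1*, *Cyr61*, *Tgfb1i1* and *Acta2*.

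**Figure D4:**
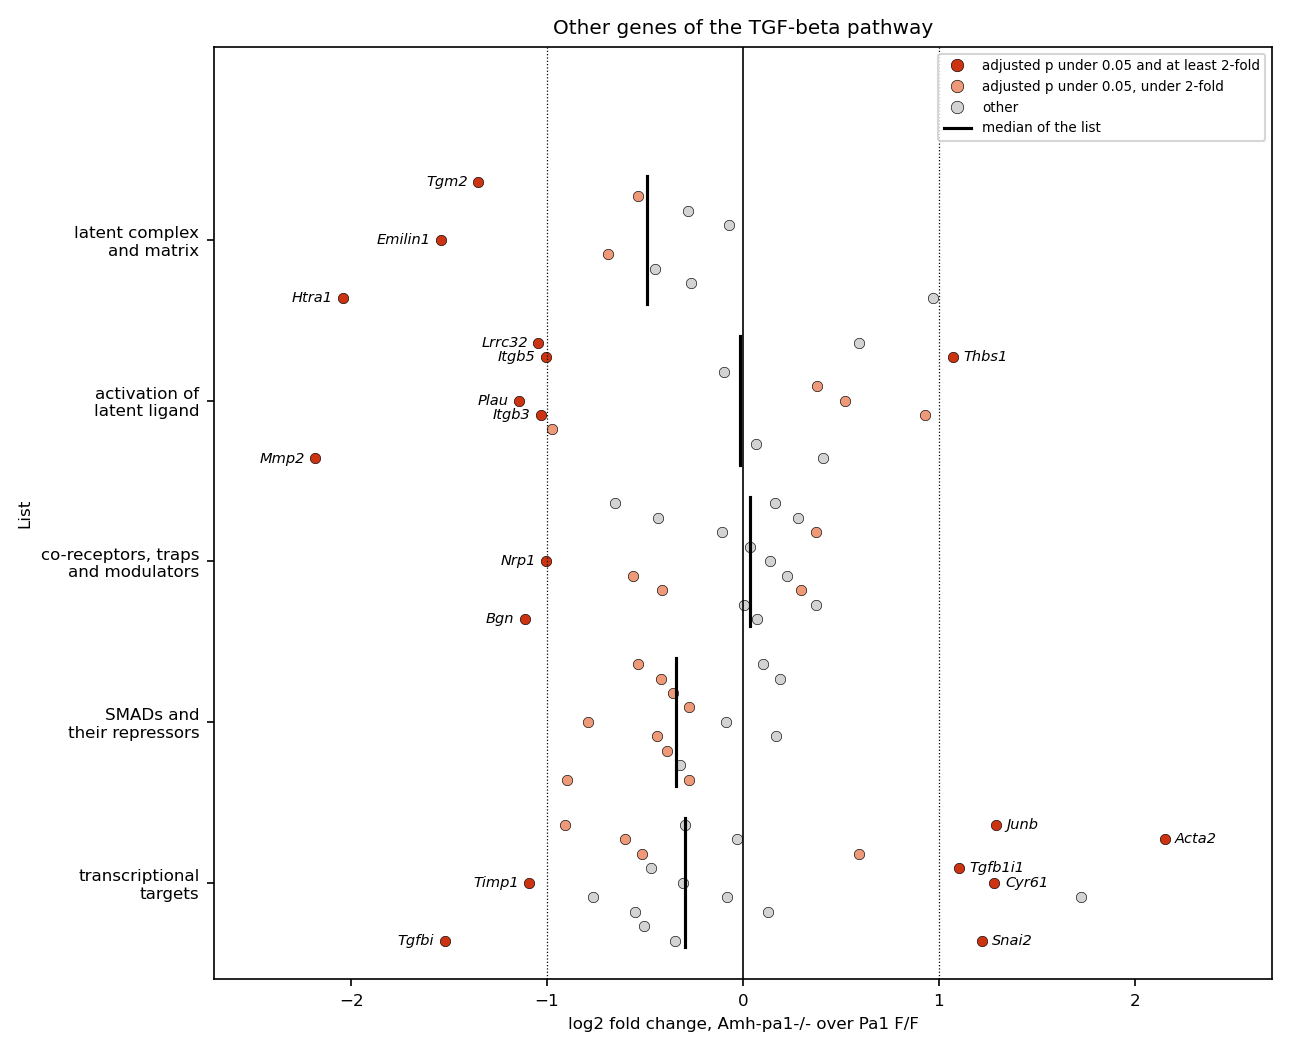
Log2 fold changes of knockout over control (edgeR, horizontal axis) in the 5 pathway lists (vertical axis), with 1 point for each of the 78 tested genes but 1 that is not reported, dark red where called, light red where only the adjusted p-value passed, grey otherwise, with a bar at each list's median. The matrix list has its median at -0.49 and no red point to the right of 0, the SMAD list has no dark point, and the targets spread from -1.52 to 2.15 among those called.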

How the data were processed

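RNA-seq read counts of 6 libraries were analysed, 3 *Pa1 F/F* and 3 *Amh-pa1-/-*, grouped by the labels. Per the study's methods and the submitters' processing notes, reads were aligned to GRCm38 with HISAT2 2.1.0 and counted per gene with HTSeq 0.6.0, and the authors deposited raw counts without normalization. The same table holds the authors' own comparison: a mean signal per gene, a fold change (ratio), its log2 value and p-values, each deposited by the authors and not used here. *Pa1* itself was not analysed here.

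Genes were filtered with filterByExpr of edgeR 4.0.16 (minimum count 10, minimum total 15) in R 4.3.3, normalized by TMM (factors 0.990 to 1.03) and compared by quasi-likelihood F-test, with p-values adjusted by Benjamini-Hochberg over 14919 genes. The standard error is the size of the log2 fold change over the root of F. The steps were tested on simulated counts with a single dispersion and no outlying library. At an adjusted p-value under 0.05, 35.5% of genes changed 1.5-fold were recovered, and 100% of those changed 2-fold or 3-fold. Unchanged genes made up 4.05%, 9.09% and 4.76% of the genes passing at 1.5-fold, 2-fold and 3-fold. Normalized counts are counts over TMM-scaled library size. The 10 genes, the pathway and marker lists and the thresholds were chosen with earlier results of these data known. Every one of the 10 genes is named. Of each pathway list, every called gene is named, or else the gene with the largest change past the adjusted p-value, as are genes that overlap one of the 10 and have more than a few counts, except genes that are not reported here. Exon lengths came from GENCODE vM39 (GRCm39), positions from the deposited table and promoters from RefSeq. Alternatives were other size factors, DESeq2 1.42.0, limma-voom (limma 3.58.1), other count filters, the replicate number as a block, each library left out, close replicates summed, no fold threshold, and shares without division by length.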

Additional observations from a re-analysis of the deposited data

How the results depend on the processing

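No log2 fold change of the 10 genes reversed under any alternative, while the share differences of *Tgfb1*, *Ltbp2* and *Ltbp3* changed sign with a library left out. Between 2 and 3 of the 10 genes were called when 1 library was left out (*Tgfb3* lost the call without knockout replicate 1 or 2), between 4 and 8 passed the adjusted p-value alone, 14 to 20 pathway genes and 1466 to 2076 of all genes were called. Without the fold threshold 7 of the 10 genes, 42 pathway genes and 5266 of all genes passed. With the close replicates summed, 1 of the 10 genes was called (*Tgfbr3*), 2 passed the adjusted p-value alone (*Tgfb1* and *Tgfbr3*), 9 pathway genes and 883 of all genes were called, and 5 genes no longer passed the adjusted p-value of edgeR, at log2 fold changes of -0.94 (*Tgfb3*), -0.22 (*Tgfbr1*), -1.24 (*Ltbp1*), -0.67 (*Ltbp3*) and 0.63 (*Ltbp4*). That fit has 4 samples. The ranges with 1 library left out, for genes whose side of the adjusted p-value changed, were -0.70 to -0.022 for *Tgfb2*, -0.34 to -0.25 for *Tgfbr1*, -0.71 to -0.41 for *Ltbp3* and 0.30 to 0.63 for *Ltbp4*. *Tgfbr2* passed with library size only (-0.28) and with at least 10 counts in every library (-0.30), and *Ltbp2* with the Wald test of DESeq2 (-0.54). *Ltbp4* did not pass with library size only (0.52), limma-voom (0.49) or at least 10 counts in every library (0.50). The causes of these changes were not tested.

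With the replicate number as a block, 3 of the 10 genes and 19 pathway genes were called and 1558 of all genes, 5 of the 10 genes passed the adjusted p-value alone, and *Ltbp3* (-0.63, edgeR adjusted p = 0.0562) and *Ltbp4* (0.49, edgeR adjusted p = 0.0879) did not pass. Libraries of 1 number deviated from their group means with correlations of 0.108, -0.164 and -0.179 across genes, and 0 of 6 libraries correlated best with its own number. The library furthest from its group was replicate 2 in control and replicate 3 in knockout libraries, so these values cannot show whether libraries of 1 number were paired. Shares by exon length from another annotation were not run, since 1 source of lengths was at hand. The lowest count of the 10 genes was 152, and the effect of depth was not tested.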
